A study of Homo sapiens with 40 samples.

Results

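The comparison was between PARP1-KO and WT HEK293A cells that had received only the solvent, and it used 8 of the 40 RNA-seq libraries of the series. HEK293A is an adherent subline of the human embryonic kidney line HEK293. The PARP1-KO cells were 1 clone, named 1A3, in which CRISPR/Cas9 with a pair of guides had removed a stretch of PARP1 that includes exons 3 to 5 from both alleles, although a label calls the genotype a knockdown, and the WT cells were the parental line. Both groups received 0.1% DMSO, the solvent in which the drugs of the other libraries were dissolved, for 5 to 5.5 h, and neither group received topotecan (Tpc) or a TDP1 inhibitor. Each group had 4 libraries, numbered 1 to 4, and the other 32 libraries were untreated or drug-treated cells of the same 2 genotypes. The labels call the replicates biological whereas the study's methods call them technical, so the p-values may measure only technical spread, and with a single clone the deletion and other properties of that clone cannot be told apart. The question addressed was which transcripts differ between the genotypes before any drug is added.

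PARP1 is an abundant nuclear enzyme that recognizes breaks in DNA through its zinc fingers and then uses NAD as a substrate to attach chains of poly(ADP-ribose) to itself, to histones and to other proteins. These chains recruit scaffold and ligase proteins of base excision and single-strand break repair, and they are removed by glycohydrolases such as PARG. PARP1 also binds chromatin and takes part in transcriptional control, including that by NF-kappa B, and it serves as a partner of the topoisomerase 1 repair enzyme TDP1.

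Gene counts summed to between 6354734 and 18458588 per library, and the 28922 genes with at least 10 counts over the 40 libraries were tested out of 58395 listed. At an equal depth of 3455043 counts, 19624 to 21161 genes were detected in the PARP1-KO libraries and 15520 to 19781 in the WT libraries, so the WT libraries were less complex and varied more. WT library 3 had the lowest number, with a mean correlation of 0.889 with the other WT libraries, and PARP1-KO library 3 had the lowest mean correlation in its own group, 0.974. Among the 12173 genes that averaged 50 or more counts across these libraries, PARP1-KO library 3 stood apart from its group at 8.33% and WT library 3 at 3.81%, against 0.427% to 1.02% for each of the others. Calls of the genes described that were lost without library 3 of either genotype are marked beside them. Levels are given as CPM, counts scaled to the normalized size of each library, in the order of libraries 1 to 4, and differences are log2 fold changes of PARP1-KO over WT ± the standard error with p-values from edgeR's quasi-likelihood test after Benjamini-Hochberg adjustment. Differentially expressed genes (DEGs) had an adjusted p-value below 0.01. CPM values are not divided by transcript length, so they compare libraries and not genes.

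The targeted gene was examined first. PARP1 (ENSG00000143799) was found at 30.4, 41.0, 46.6 and 39.8 CPM in the PARP1-KO libraries and at 850, 834, 737 and 850 CPM in the WT libraries. No PARP1-KO library approached the WT range, although transcript reads remained in all 4. The log2 fold change was -4.37 ± 0.12 (adjusted p = 9.35e-37), and -4.46 without PARP1-KO library 3. The exact two-sided permutation test over the 8 libraries gave p = 0.0286, the smallest value that 4 against 4 allows. The deleted exons lie on the minus strand of chromosome 1 and hold 431 coding bases, 14.2% of the coding sequence, a number that leaves a remainder of 2 when divided by 3. They are shown because they define the knockout, as read 5′ to 3′ from hg38 with the exon borders of GENCODE 44 at chr1:226392199-226392314, chr1:226390410-226390624 and chr1:226388656-226388755, with the 4 codons of the zinc-binding residues of the second zinc finger in capitals.
PARP1 exon 3: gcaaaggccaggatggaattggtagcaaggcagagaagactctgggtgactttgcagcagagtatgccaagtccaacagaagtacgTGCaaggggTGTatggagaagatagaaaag
PARP1 exon 4: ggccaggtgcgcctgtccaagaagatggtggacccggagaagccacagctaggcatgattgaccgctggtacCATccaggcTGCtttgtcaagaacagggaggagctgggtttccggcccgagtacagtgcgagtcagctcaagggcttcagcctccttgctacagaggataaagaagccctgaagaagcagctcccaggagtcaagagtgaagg
PARP1 exon 5: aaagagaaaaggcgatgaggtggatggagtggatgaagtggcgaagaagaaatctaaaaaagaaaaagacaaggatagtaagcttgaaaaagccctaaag
Exons 3 and 4 each carry 2 of these codons and exon 5 carries none. The deposited counts are summed over whole genes, so reads over the deleted exons could not be separated from reads elsewhere in PARP1.

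The genotypes differed in many transcripts. With DMSO, 3592 genes were DEGs, 12.4% of those tested, of which 1930 were higher (6.67%) and 1662 lower (5.75%) in PARP1-KO. With a variance estimated from these 8 libraries alone, 2061 were DEGs and the lower side was the larger, with 1004 higher and 1057 lower. Changes of at least 2-fold were found for 1383 DEGs (4.78% of genes tested), 799 higher (2.76%) and 584 lower (2.02%), and changes of at least 8-fold for 195 and 56. The CPM values of the groups did not overlap for 3559 genes that were higher in every PARP1-KO library (12.3%) and 2243 that were lower (7.76%). Most DEGs were protein coding: 1778 rose and 1619 fell of 16864 such genes (20.1%), against 2.04% of 6433 lncRNA genes and 1.07% of 4191 pseudogenes that were DEGs. The median log2 fold change was 0.19 over all genes tested and 0.02 over these 12173 well-measured genes, of which 27.3% were DEGs, 14.2% higher and 13.1% lower. These shares are the background for the gene groups described below.

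With PARP1-KO library 3 left out, 2726 genes were DEGs (9.43%), 1470 higher (5.08%) and 1256 lower (4.34%). Of the 3592 DEGs, 2668 remained, 924 were lost and 58 genes were gained, with 0 changes of sign among the genes shared. Those lost had a median absolute log2 fold change of 0.69, against 0.94 for those kept. Leaving out each of the 8 libraries in turn kept 2111 DEGs in every case. Of the 173 DEGs among the 181 genes chosen for naming, 25 lost their call without PARP1-KO library 3 and 40 in at least 1 of these fits.

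Many genes that were nearly silent in WT cells were expressed in the PARP1-KO clone. ETV1, an ETS family transcription factor, was found at 16.8, 13.1, 18.7 and 16.6 CPM in PARP1-KO and at 0.284, 1.37, 0 and 1.10 CPM in WT, a log2 fold change of 4.62 ± 0.52 (adjusted p = 2.92e-10). FOSB, an AP-1 subunit of the immediate early response, was found at 46.6, 62.9, 48.9 and 47.1 CPM against 2.49, 6.86, 0 and 4.38 CPM, a log2 fold change of 3.92 ± 0.41. The groups were far apart for both genes, and WT library 3 held 0 counts of each. HAS2, which makes the matrix polysaccharide hyaluronan, rose from at most 2.04 CPM in WT to between 10.6 and 16.8 CPM, and CRYAB, a small heat shock protein, rose from at most 2.04 CPM to between 12.7 and 22.1 CPM. Both overlap genes annotated on the opposite strand. ARHGAP30, a GTPase-activating protein, was found at 35.7, 35.5, 32.3 and 31.1 CPM against 3.34, 0.105, 3.12 and 2.04 CPM (log2 fold change 3.93 ± 0.39). AOC3, an amine oxidase of the cell surface, rose by 3.50 ± 0.44 on the log2 scale, and its neighbours on chromosome 17, AOC2 and RUNDC1, rose by 2.36 and 0.84.

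The strongest decreases among well-measured DEGs without overlap of the groups concerned genes of different functions. Some DEGs with fewer counts, described below, fell further, such as IQCA1 (log2 fold change -5.97) and FMOD (-5.08). After PARP1 the largest decrease among the well-measured DEGs without overlap was that of DEPP1, a FOXO-induced regulator of autophagy. DEPP1 overlaps RASSF4 on the opposite strand. It was found at 17.4, 19.7, 23 and 20.98 CPM in PARP1-KO and at 413.8, 361.5, 511.6 and 302.3 CPM in WT (log2 fold change -4.29 ± 0.17, adjusted p = 4.12e-29). PKP3, the desmosomal plaque protein plakophilin 3, was found at 2.97, 3.59, 2.06 and 3.61 CPM against 36.8, 32.8, 49.02 and 33.4 CPM (log2 fold change -3.61 ± 0.28, adjusted p = 1.53e-15). Neither gene overlapped between the groups, which was a condition of its choice. ARSD, a sulfatase family member on the X chromosome, was found at 0.923, 1.85, 1.08 and 2.56 CPM in PARP1-KO and at 14.6, 29.01, 12.8 and 19.6 CPM in WT (log2 fold change -3.52 ± 0.38, adjusted p = 1.06e-10). GYG2, which primes glycogen synthesis, lies close to ARSD and was found at 2.15, 3.32, 4.6 and 2.56 CPM against 23.2, 35.2, 18.5 and 21.3 CPM (log2 fold change -2.96 ± 0.29). The groups of both genes were separated by a wide gap, and CD99, in the same part of the X chromosome, fell by 1.08 on the log2 scale. RAC2, a small GTPase best known from blood cells, was found at 1.95, 1.47, 3.03 and 2.18 CPM against 14.8, 17.4, 24.2 and 11.6 CPM. COL2A1, the collagen chain of cartilage, was found at 3.59, 3.32, 3.82 and 2.48 CPM against 16.8, 26.8, 16.8 and 19.3 CPM. RAC2 and COL2A1, also chosen for groups without overlap, had log2 fold changes of -2.99 ± 0.42 and -2.59 ± 0.39. The pannexin channel gene PANX2 fell by 3.19, the elastic fibre gene EFEMP2 by 2.75 and the protease inhibitor gene SPINT1 by 2.67 on the log2 scale. TAF11L14 (log2 fold change -3.35) belongs to a cluster of near-identical copies, of which TAF11L12 and the neighbouring H3Y1 were also DEGs (-1.97 and -2.47), so reads may be divided among the copies and these values are uncertain.

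**Figure D1:**
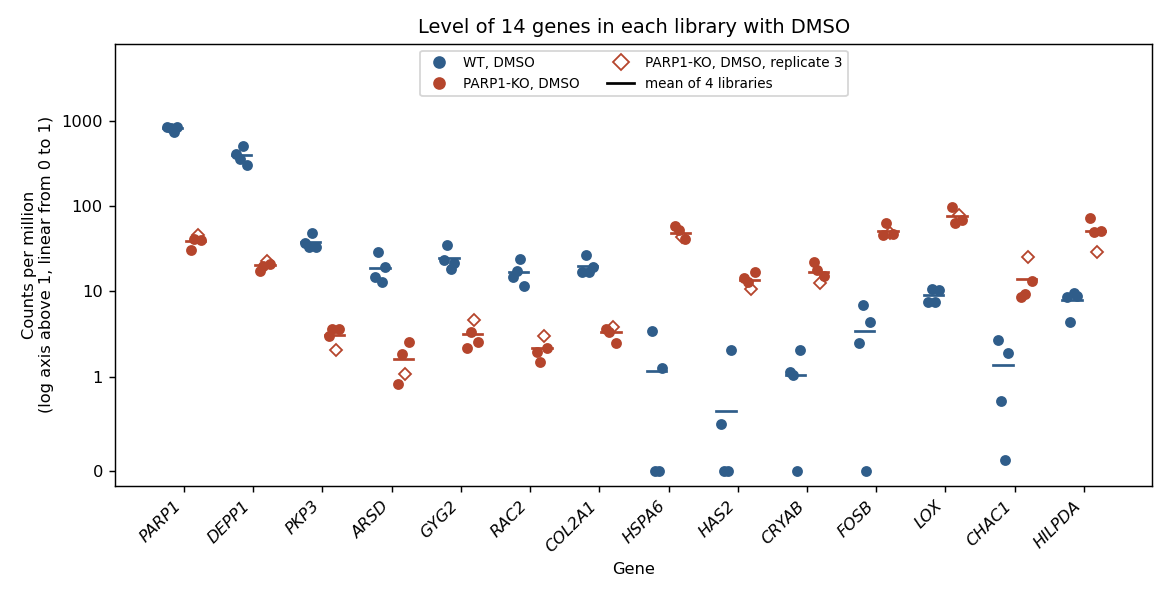
Level of 14 genes (vertical, CPM, linear from 0 to 1 and logarithmic above) in each PARP1-KO and WT library with DMSO, where a point is a library, a line the mean of 4 libraries and an open diamond PARP1-KO library 3. Apart from PARP1, the genes were chosen among those without overlap of the groups, so none of them could overlap. PARP1 lies at 30.4 to 46.6 CPM in PARP1-KO and at 737 to 850 CPM in WT.

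A few genes passed from no detectable transcript to clear expression or the reverse. With a mean of at least 20 counts in 1 group and at most 3 counts summed over the other, 40 genes were on in PARP1-KO and 6 were off, of which 37 and 5 were DEGs. Fewer genes were detected at equal depth in the WT libraries (15520 to 19781) than in the PARP1-KO libraries (19624 to 21161), and the part of this difference in the counts of 40 and 6 was not tested. The switched genes with the most counts were KRT75, a hair follicle keratin, with 1868 counts over the PARP1-KO libraries and 3 over the WT libraries (adjusted p = 1.11e-17), and the neuronal RNA-binding protein gene ELAVL2, with 683 and 1 (adjusted p = 1.66e-11). KRT75 overlaps a gene on the opposite strand and was found at 43.2, 38.3, 23.98 and 37.5 CPM in PARP1-KO, and ELAVL2 at 15.6, 10.9, 13.4 and 14.6 CPM. KRTAP19-1, a hair keratin-associated protein, had 192 counts over the PARP1-KO libraries and 0 over the WT libraries, which gave a level at least 45.6-fold higher when WT was set to the floor of 3 counts over the group. PIK3CG, the catalytic subunit of PI3-kinase gamma, had 162 and 0 counts (at least 38.8-fold), and TMEM232 had 153 and 0 (at least 39.1-fold). In the other direction, PLBD1, a phospholipase family gene, had 0 counts in PARP1-KO and 98 in WT, at least 41.3-fold lower. IQCA1 had 3 and 156 counts, and the small leucine-rich proteoglycan gene FMOD had 3 and 87. A count of 0 limits the level only to the floor, and this limit covers counting error alone.

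The PARP family was examined next, since its members share the catalytic fold of PARP1. Of 16 paralogs tested, 4 rose and 1 fell, and the median log2 fold change was 0.11. DEGs made up 31.2% of them, against 12.4% of all genes tested and 27.3% of those averaging 50 or more counts. PARP2, the closest partner of PARP1 in DNA repair, was found at 63.4, 68.8, 83.5 and 76.5 CPM in PARP1-KO and at 52.3, 67.9, 45.2 and 38.8 CPM in WT. The ranges overlapped, the log2 fold change was 0.51 ± 0.15 (adjusted p = 0.00964), and the call was lost without PARP1-KO library 3 (adjusted p = 0.045). TIPARP, a mono-ADP-ribosyltransferase induced by the aryl hydrocarbon receptor, was found at 145, 149, 145 and 143 CPM against 67.6, 63.6, 20.98 and 76.7 CPM (log2 fold change 1.35 ± 0.19). PARP8 rose by 0.94 and the vault-associated PARP4 by 0.52 on the log2 scale, PARP4 with an adjusted p of 0.013 when PARP1-KO library 3 was omitted and of 0.027 without WT library 3, which also ended the call of PARP2 (adjusted p = 0.038). With library 3 of either group left out, 2 paralogs rose and 1 fell. PARP12, an interferon-inducible mono-ADP-ribosyltransferase singled out after its values were seen, was found at 0, 0.872, 0.294 and 0.677 CPM against 10.3, 5.70, 14.1 and 6.11 CPM (log2 fold change -4.16 ± 0.65, adjusted p = 1.51e-06). No PARP1-KO library reached the WT range.

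Of 26 genes of ADP-ribose removal and NAD metabolism, 2 rose and 2 fell. This share of 15.4% lies between the 12.4% of all genes tested and the 27.3% of those averaging 50 or more counts. NAMPT, the rate-limiting enzyme of NAD salvage, was found at 188, 173, 240 and 183 CPM against 118, 125.9, 65.4 and 105 CPM (log2 fold change 0.92 ± 0.14), and SARM1, an NAD hydrolase best known from axon degeneration, rose by 1.28 ± 0.23. NMRK1, a nicotinamide riboside kinase, fell by 1.77 ± 0.43, but without WT library 3 the log2 fold change was -1.39 and the call was lost (adjusted p = 0.0191). That omission left 2 higher and 0 lower DEGs in the list. PARG itself, which removes poly(ADP-ribose), averaged 84.8 ± 3.82 CPM in PARP1-KO and 83.5 ± 25.5 CPM in WT (SD, n = 4), and every PARP1-KO library lay inside the WT range.

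Among 40 genes of base excision and single-strand break repair, 4 rose and 6 fell, with a median log2 fold change of 0.03. DEGs made up 25% of the list, against 12.4% of all genes tested. Over genes averaging 50 or more counts, as 38 of the 40 did, the share was 27.3%, so the count is not read as a pathway result. The core partners of PARP1 did not pass the test. The scaffold gene XRCC1 was found at 27.0 to 38.3 CPM in PARP1-KO and at 26.3 to 55.9 CPM in WT (adjusted p = 0.565), and the ligase gene LIG3 at 36.0 to 45.9 CPM and 32.4 to 56.7 CPM (adjusted p = 0.223). The endonuclease gene APEX1 (adjusted p = 0.7), TDP1 (log2 fold change 0.02 ± 0.25) and TOP1 (0.22 ± 0.10), the target of Tpc, also overlapped between the groups. POLB, the gap-filling polymerase, was lower in every PARP1-KO library (25.3, 23.3, 29.4 and 30.4 CPM) than in any WT library (42.9, 47.7, 33.9 and 34.1 CPM) but missed the threshold (-0.55 ± 0.17, adjusted p = 0.0129), which it passed without WT library 3 (adjusted p = 0.00592). NEIL1, a glycosylase for oxidized bases, was found at 8.41, 8.77, 6.75 and 8.87 CPM against 34.5, 18.6, 57.5 and 22.4 CPM (log2 fold change -2.02 ± 0.24). The polymerase subunits POLE4 and POLD2 fell by 1.54 and 0.72, whereas the clamp loader subunit RFC3 rose by 0.87 on the log2 scale. Without PARP1-KO library 3 the list kept only 1 higher and 4 lower DEGs, the higher calls of POLD3 (adjusted p = 0.08) and APEX2 (adjusted p = 0.014) being among those lost. POLD3 was also not a DEG without WT library 3 (adjusted p = 0.021).

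Double-strand break and crosslink repair genes were more often higher. Of 48 tested, 16 rose and 1 fell, and the median log2 fold change was 0.35. The shares were 6.67% higher and 5.75% lower over all genes tested. Over genes averaging 50 or more counts, as 45 of the 48 did, they were 14.2% and 13.1%. BRCA2, a mediator of homologous recombination, was found at 76.8, 89.8, 129 and 83.6 CPM in PARP1-KO and at 30.7, 41.7, 29.96 and 52.5 CPM in WT (log2 fold change 1.30 ± 0.21). RIF1, which limits end resection, rose by 1.16 and FANCB of the Fanconi core complex by 1.63, while XRCC6, the Ku70 subunit of end joining, fell by 0.36. PARP1-KO library 3 had the highest BRCA2, RIF1 and FANCB levels. Without it, 9 genes of the list rose and none fell, and FANCB (adjusted p = 0.012) and XRCC6 (adjusted p = 0.021) lost their calls. XRCC6 also lost its call without WT library 3 (adjusted p = 0.033), and with library complexity as a covariate 10 genes of the list rose and 0 fell. With a correction for transcript length and GC content, 12 rose and 4 fell (median 0.31). BRCA2 and RIF1 have transcripts of 12077 and 15003 bases, and long transcripts were more often higher in general, as described below. The part of length in these values was not tested.

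Genes of protein degradation and antigen presentation were lower. Of 40 proteasome subunit genes, 22 fell and 1 rose, with a median log2 fold change of -0.39. The core particle subunit PSMA4 was found at 232, 238, 270 and 252 CPM in PARP1-KO and at 489, 459, 660 and 402 CPM in WT (log2 fold change -1.02 ± 0.13), PSMA7 fell by 1.00 and PSMA1, which may share reads with an overlapping gene, by 1.03. The regulatory particle subunit PSMD12 rose by 0.42, with an adjusted p of 0.033 without PARP1-KO library 3. That omission left 13 lower DEGs in the list, and omission of WT library 3 left 14 lower and 1 higher. With library complexity as a covariate, 12 were lower and 1 higher. Of 20 genes of MHC class I presentation and the immunoproteasome, 10 fell and none rose, with a median of -1.04. HLA-B was found at 59.8, 53.2, 54.8 and 58.0 CPM against 257, 200, 381 and 217 CPM (log2 fold change -2.23 ± 0.15, adjusted p = 4.09e-18), HLA-C fell by 1.30 and TAPBP, the tapasin gene of the peptide-loading complex, by 1.35. Every WT library exceeded every PARP1-KO library for these 3 genes, a condition of the rule by which they were named. HLA genes are near-identical in sequence, so reads may be divided among them.

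Heat shock genes changed in both directions. Heat shock proteins are chaperones, and their inducible members are transcribed by HSF1 through heat shock elements. Of 25 cytosolic heat shock genes, 8 rose and 2 fell. HSPA6, a strictly inducible HSP70 gene, was found at 59.0, 52.3, 43.6 and 41.7 CPM in PARP1-KO and at 3.41, 0, 0 and 1.25 CPM in WT, although part of its reads may come from the near-identical HSPA7. The constitutive HSPA8 was found at 748, 762, 626 and 834 CPM against 1473, 1608, 1600 and 1390 CPM, a log2 fold change of -1.03 ± 0.12. HSPH1, a nucleotide exchange factor, rose by 0.78, HSPA1B, which is near-identical to HSPA1A, fell by 0.80, and HSF1 rose by 0.70 ± 0.14 (adjusted p = 0.00015). The promoter of HSPA6 is shown because it was the heat shock gene with the largest change and holds an element of this kind. It is taken from RefSeq (GRCh38.p14, chr1:161524290-161524539, plus strand), covers the 250 bases before the start, and carries the match in capitals.
HSPA6 promoter: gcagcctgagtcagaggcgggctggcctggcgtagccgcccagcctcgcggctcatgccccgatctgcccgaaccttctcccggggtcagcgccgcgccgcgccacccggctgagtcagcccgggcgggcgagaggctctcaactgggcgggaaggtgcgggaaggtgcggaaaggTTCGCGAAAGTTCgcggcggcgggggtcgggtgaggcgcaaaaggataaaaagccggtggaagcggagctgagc
The searched motif was GAA, 2 free bases, TTC, 2 free bases and GAA, on either strand, found in 120 of 27305 RefSeq promoters (0.439%). Among list members with a promoter entry it was present in 1 of 6 that rose and in 2 of 16 others, namely HSPA8 and CHORDC1, so genes with the motif were found in both directions. A match is a description of the letters only.

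Genes of the endoplasmic reticulum (ER) were more often lower than higher DEGs, and those of the ATF4 program more often higher. ER chaperones fold secretory proteins, whereas ATF4 is translated under stress and activates amino acid synthesis and stress effector genes. Of 29 genes of ER chaperones and the unfolded protein response, 10 fell and 3 rose. The disulfide isomerase PDIA4 was found at 91.4, 116.4, 113 and 115.5 CPM against 271, 264, 251 and 257 CPM (log2 fold change -1.26 ± 0.12), HYOU1 fell by 0.91 and SEC61B by 0.83, and the degradation factors HERPUD1 and DERL1 rose by 0.65 and 0.58. HERPUD1 and SEL1L, the other gene that rose, lost their calls without PARP1-KO library 3 (adjusted p = 0.013 and 0.028). Without WT library 3, HERPUD1 (adjusted p = 0.0112), SEL1L (log2 fold change 0.37, adjusted p = 0.086) and SEC61B (adjusted p = 0.0141) were not DEGs. Of 48 ATF4 program genes, 26 rose and 2 fell, with a median log2 fold change of 0.69, and 26 rose and 1 fell without PARP1-KO library 3. PPP1R15A, the phosphatase subunit that reverses eIF2 alpha phosphorylation, was found at 642, 664, 707 and 624 CPM against 142, 120, 190 and 118 CPM (log2 fold change 2.21 ± 0.12, adjusted p = 1.12e-21). GDF15, a secreted stress cytokine, averaged 91.5 ± 16.7 CPM in PARP1-KO and 18.3 ± 3.23 CPM in WT (SD, n = 4), PARP1-KO library 3 being the lowest of its group but above every WT library, and ATF4 itself rose by 0.74 ± 0.14. ALDH18A1, of proline synthesis, fell by 0.55.

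CHAC1, which degrades glutathione, was found at 8.72, 9.37, 25.4 and 13.2 CPM in PARP1-KO and at 2.7, 0.739, 0.120 and 1.88 CPM in WT. PARP1-KO library 3 was the highest and WT library 3 the lowest, and the log2 fold change of 3.29 ± 0.43 became 2.85 without PARP1-KO library 3. In untreated cells the difference was 1.08, and the test of the dependence on DMSO did not pass (adjusted p = 0.72). The CHAC1 promoter is shown as the ATF4 target with the largest change that carries a C/EBP-ATF element, from RefSeq (GRCh38.p14, chr15:40953221-40953470, plus strand), with the match in capitals.
CHAC1 promoter: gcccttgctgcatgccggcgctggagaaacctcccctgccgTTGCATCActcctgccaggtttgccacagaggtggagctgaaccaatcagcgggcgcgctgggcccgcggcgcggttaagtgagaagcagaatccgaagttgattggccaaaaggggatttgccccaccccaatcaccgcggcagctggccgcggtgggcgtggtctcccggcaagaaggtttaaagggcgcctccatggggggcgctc
The motif TGATGNAA on either strand was found in 870 promoters (3.19%). In the ATF4 list it was present in 3 of 23 genes that rose (ATF3, CHAC1 and AARS1) and in 2 of 17 others (ASNS and FGF21).

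Among transcripts of energy metabolism, DEGs of glycolysis were more often higher and those of respiration were lower. Of 27 glycolysis genes, 11 rose and 2 fell, and 9 had a negative log2 fold change. HK2, the inducible hexokinase, was found at 127.3, 112, 102.7 and 99.6 CPM in PARP1-KO and at 21.3, 25.7, 16.8 and 28.8 CPM in WT (log2 fold change 2.26 ± 0.17, adjusted p = 2.22e-16), whereas the housekeeping hexokinase HK1 fell by 0.68. The glucose transporter SLC2A3 rose by 1.65 and PDK1, which limits pyruvate entry into mitochondria, by 1.57. Of 76 nuclear-encoded genes of oxidative phosphorylation, none rose and 30 fell, with a median log2 fold change of -0.48, and the complex I subunits NDUFC1 and NDUFS6 and the complex IV subunit COX8A fell by 1.21, 1.08 and 1.09. Without PARP1-KO library 3, 21 fell, and without WT library 3, 16 fell (median -0.29), as did 15 with library complexity as a covariate. Of 13 mitochondrially encoded genes, 11 fell and none rose, with a median of -1.07. MT-CO2 was found at 2844, 2526, 2175 and 2827 CPM against 6623, 6231, 8396 and 4813 CPM (log2 fold change -1.33 ± 0.13). Mitochondrial transcripts took 3.73% to 4.94% of counts in the PARP1-KO libraries and 6.38% to 8.25% in the WT libraries, so the ranges did not overlap. Of 77 mitochondrial ribosome genes, 20 fell and 1 rose, and MRPL23, MRPL11 and MRPL1 fell by 1.57, 1.14 and 0.98. MRPL23 and MRPL11 lie on chromosome 11 and MRPL1 on chromosome 4, whose genes were lower as a whole, as described below. The median of the 77 genes was -0.30. Without WT library 3, 12 fell and 0 rose with a median of -0.13, and MRPL1 had a log2 fold change of -0.59 and lost its call (adjusted p = 0.0153). With library complexity as a covariate, 11 fell and 2 rose, with a median of -0.13. Less RNA per cell and fewer cells of a type cannot be told apart in bulk samples. The cytosolic ribosomal protein genes had no stable balance, with 1 higher and 7 lower of 79 (median -0.05), but 12 higher and 4 lower without WT library 3 (median 0.15), and 6 higher and 3 lower with library complexity as a covariate (median 0.17).

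**Figure D2:**
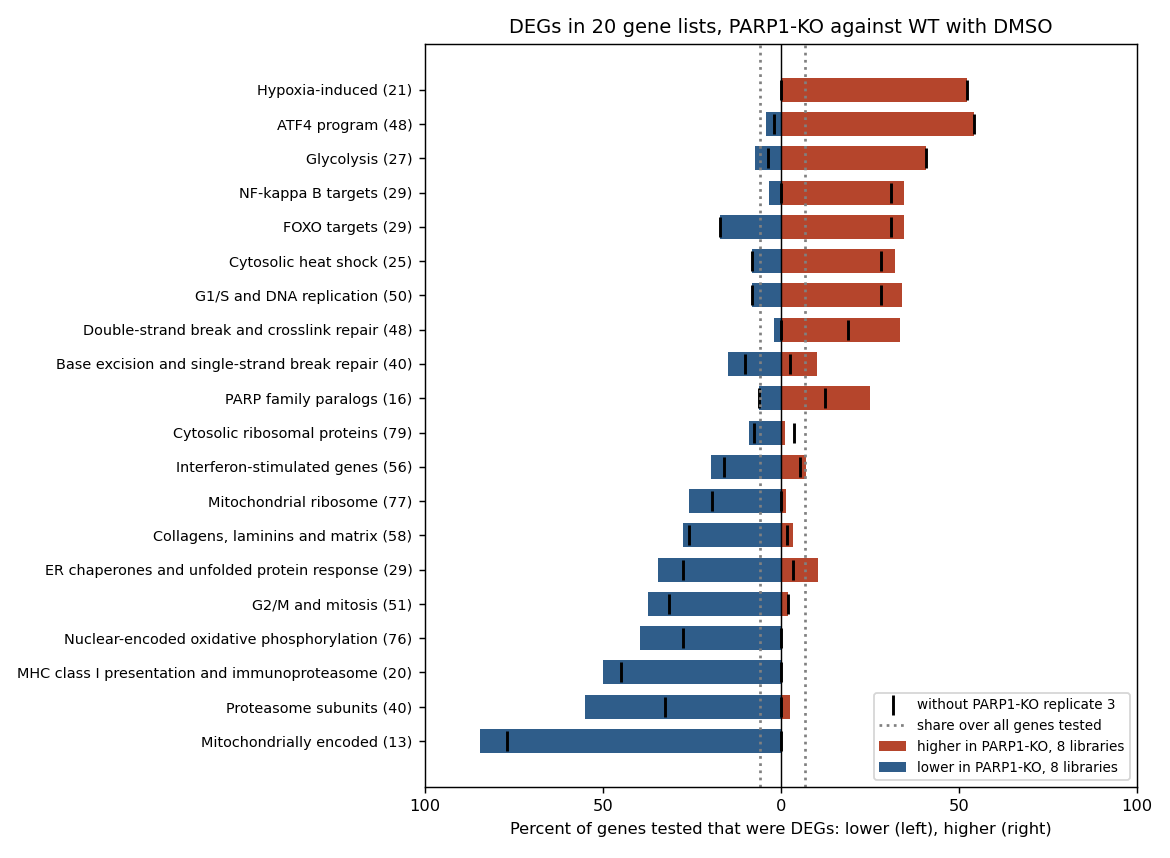
Percent of the tested members of 20 gene lists (number in brackets) that were higher (right) or lower (left) DEGs in PARP1-KO with DMSO, where bars use 8 libraries, black ticks leave out PARP1-KO library 3 and dotted lines mark the share over all genes tested (6.67% and 5.75%). Among genes averaging 50 or more counts these shares were 14.2% and 13.1%. The bars of the ATF4 program stand for 26 higher and 2 lower genes of 48, and those of nuclear-encoded oxidative phosphorylation for 0 higher and 30 lower of 76.

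Hypoxia-induced genes, most of which are targets of the HIF transcription factors, were higher. Of 21 tested, 11 rose and none fell, the median log2 fold change was 0.61, and 20 were positive. LOX, which crosslinks collagen, was found at 98.05, 64.3, 77.9 and 69.4 CPM in PARP1-KO and at 7.60, 10.8, 7.43 and 10.5 CPM in WT (log2 fold change 3.10 ± 0.27, adjusted p = 4.7e-14). HILPDA, a lipid droplet protein, was found at 72.5, 49.3, 28.7 and 51.7 CPM against 8.53, 4.43, 9.59 and 8.92 CPM, and NDRG1 at 1172, 962, 568 and 917 CPM against 171, 172, 172 and 184 CPM. PARP1-KO library 3 was the lowest of its group for HILPDA and NDRG1 but above every WT library, and without it 11 genes rose with a median of 0.82. The LOX promoter is shown as that of the hypoxia gene with the largest change among those that rose (RefSeq, GRCh38.p14, chr5:122078260-122078509, minus strand), with the core ACGTG on either strand in capitals.
LOX promoter: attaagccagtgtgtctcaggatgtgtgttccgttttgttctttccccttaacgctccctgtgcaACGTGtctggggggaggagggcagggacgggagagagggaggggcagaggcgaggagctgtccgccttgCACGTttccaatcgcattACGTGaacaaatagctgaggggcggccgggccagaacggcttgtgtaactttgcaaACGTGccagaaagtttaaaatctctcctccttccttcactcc
It holds 4 matches. This short core is common, being found in 5101 promoters (18.7%), and it was present in 4 of 7 list genes that rose and in 7 of 9 others with a promoter entry.

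Cell cycle genes were divided by phase. Of 50 genes of G1/S and DNA replication, 17 rose and 4 fell, and of 51 genes of G2/M and mitosis, 1 rose and 19 fell, with medians of 0.29 and -0.29. E2F7, a repressor of the E2F program, was found at 102.5, 102.9, 124.7 and 116.2 CPM in PARP1-KO and at 39.9, 53.5, 25.4 and 59.2 CPM in WT (log2 fold change 1.33 ± 0.20). The replication factors MCM10 and CDT1 each rose by 1.05, and the CDK inhibitor CDKN2C fell by 1.01. CENPE, a kinetochore motor, was found at 65.2, 59.1, 78.3 and 62.0 CPM against 122.7, 214, 181 and 223 CPM (log2 fold change -1.48 ± 0.17). The centromeric histone gene CENPA fell by 2.08 and PSRC1 by 1.27. The split by phase was also found without PARP1-KO library 3, with 14 higher and 4 lower against 1 higher and 16 lower, and without WT library 3 the mitosis list had 1 higher and 21 lower.

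Target genes of NF-kappa B and FOXO transcription factors were more often higher than lower. Of 29 NF-kappa B targets, 10 rose and 1 fell, with a median of 0.94. With library complexity as a covariate the median was 0.39, with 8 higher and 1 lower. TNFAIP3, a feedback inhibitor of the pathway, was found at 57.7, 50.1, 62.7 and 46.4 CPM against 13, 12.4, 4.08 and 15.2 CPM (log2 fold change 2.28 ± 0.19), IER3 and the chemokine gene CCL20 rose by 1.98 and 1.86, and the subunit gene NFKB1 fell by 0.61 (adjusted p = 0.02 without PARP1-KO library 3 and 0.065 without WT library 3). GADD45B, counted in the list of YAP and TEAD targets, rose by 2.75 ± 0.14 (adjusted p = 8.46e-24). Of 29 FOXO targets, 10 rose and 5 fell, with FBXO32, BCL6 and KLF6 rising by 1.96, 1.62 and 1.56 and the antioxidant enzyme gene CAT falling by 0.88. The largest change in this list was that of DEPP1 (log2 fold change -4.29). FBXO32 lies in a window of chromosome 8 whose genes had a median of 0.89, as described below. With library complexity as a covariate, 9 FOXO targets rose and 3 fell. Without PARP1-KO library 3, the higher and lower calls numbered 9 and 0 for NF-kappa B targets and 9 and 5 for FOXO targets. GADD45A, a growth arrest gene counted in neither of these lists, was found at 196, 211, 274 and 195 CPM in PARP1-KO and at 66.0, 46.6, 85.9 and 65.3 CPM in WT (log2 fold change 1.73 ± 0.14). Its groups did not overlap, a condition of the rule by which it was named. The phosphatase gene PPM1D and the kinase gene PLK2, also outside both lists, rose by 1.71 and 1.63.

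Interferon-stimulated and antioxidant gene lists held DEGs in both directions. DEGs made up 26.8% of the interferon-stimulated list and 27.3% of the NRF2 and glutathione list. The share was 12.4% over all genes tested and 27.3% over those averaging 50 or more counts. The counts of these lists are therefore not read as pathway results. Of 56 interferon-stimulated genes, 4 rose and 11 fell: the oligoadenylate synthetase OAS3 was found at 18.9 to 21.1 CPM in PARP1-KO and at 56.7 to 69.0 CPM in WT (log2 fold change -1.64 ± 0.19), IFITM3 and IFI35 fell (log2 fold changes -1.5 and -1.93), and IFI44L and ISG20 rose by 2.61 and 1.96. IFI16, a DNA sensor, rose by 1.73, a call lost without PARP1-KO library 3 (adjusted p = 0.029) and without WT library 3 (adjusted p = 0.0194). Of 44 NRF2 and glutathione genes, 4 rose and 8 fell, and 4 rose and 4 fell with library complexity as a covariate. The heme oxygenase gene HMOX1 was found at 90.0, 69.3, 31.3 and 77.0 CPM against 12.4, 18.7, 10.1 and 9.71 CPM (log2 fold change 2.39 ± 0.28), and the glutathione transferase GSTP1 and the peroxidase GPX3 fell by 1.40 and 1.63.

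Matrix genes were more often lower, while lists of adhesion genes held DEGs in both directions. Of 58 collagen, laminin and matrix genes, 16 fell and 2 rose, with a median of -0.29, and 15 fell and 1 rose without PARP1-KO library 3. With library complexity as a covariate, 19 fell and 1 rose, with a median of -0.50. COL5A1 was found at 45.6, 43.3, 28.9 and 41.0 CPM in PARP1-KO and at 128.5, 161, 87.0 and 169 CPM in WT (log2 fold change -1.78 ± 0.17). The laminin chain gene LAMB3 fell by 1.74, and COL14A1 and LAMA4 rose by 0.95 and 0.90, LAMA4 with an adjusted p of 0.041 without PARP1-KO library 3. Among 26 integrin genes 3 fell and 1 rose, and among 37 cadherin genes 2 fell and 1 rose. Among 45 keratin, desmosome and tight junction genes 4 fell and 3 rose. DEGs made up 15.4%, 8.11% and 15.6% of these lists. Over all genes tested 5.75% were lower and 6.67% higher, 12.4% together, and 27.3% of those averaging 50 or more counts were DEGs.

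The identity of the cells was checked against 10 markers of HEK293, whose summed level was 2007 to 2260 CPM in PARP1-KO and 1908 to 2602 CPM in WT. Of these, 2 rose and 4 fell. VIM, the mesenchymal intermediate filament, rose by 0.60 and the keratin genes KRT18 and KRT8 fell by 0.74 and 0.38, KRT8 with an adjusted p of 0.056 without PARP1-KO library 3 and of 0.071 without WT library 3. Those omissions left 1 higher and 2 lower, and 2 higher and 1 lower DEGs. PAX2, a kidney transcription factor, was low in both groups, at 0.923, 1.14, 0.0979 and 1.28 CPM in PARP1-KO and 4.12, 5.91, 7.31 and 2.82 CPM in WT (adjusted p = 0.00715). Its call was lost in 7 of the 8 fits that left out 1 library, with adjusted p-values up to 0.041, that without PARP1-KO library 3. Markers of other cells were at low levels, with 10 fibroblast genes summing to 45.9 to 56.0 CPM against 53.01 to 90.3 CPM (0 higher and 1 lower, COL1A1, with an adjusted p of 0.0225 without WT library 3), 8 blood cell genes to 4.21 to 7.28 CPM against 2.43 to 5.63 CPM (1 higher and 0 lower, CD14), 8 endothelial genes to 5.78 to 8.80 CPM against 6.26 to 8.46 CPM and 5 hepatocyte genes to 0.718 to 1.504 CPM against 0 to 1.28 CPM. CD3E was at 0 in the PARP1-KO libraries and PTPRC at 0 in the WT libraries.

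Position along the genome was examined for the same 12173 genes. The genes of chromosome 4 had a median of -0.43 on the log2 scale, with 341 of 442 genes negative, 8 higher and 137 lower, and the value in untreated cells was -0.40. In its window chr4:100000001-110000000 the median of 31 genes was -0.73, and 21 fell and none rose, among them PPA2 (-1.66), CENPE, CYP2U1 (-1.43), OSTC (-1.32) and CASP6 (-1.30). Chromosome 11 had the lowest median of the chromosomes, -0.50, with 559 of 691 genes negative, 25 higher and 274 lower. Its lowest window, chr11:110000001-120000000, had a median of -0.80 over 61 genes. It held BACE1 (-1.69), FXYD6 (-1.64) and RNF26 (-1.49), but also CRYAB, which rose by 4.03. The window chr8:120000001-130000000 had a median of 0.89 over 29 genes, including ATAD2 (1.54), MTSS1 (2.62) and PVT1 (1.75). The genes of these windows were chosen after their values were seen. Some genes given above with their lists also lie there. Among them are FBXO32, COL14A1 and DERL1 in the chromosome 8 window, HYOU1 in that of chromosome 11 and NFKB1 in that of chromosome 4. Others lie elsewhere on the 2 low chromosomes. They include MRPL23, MRPL11, COX8A, PSMA1, HSPA8, GSTP1, CAT and IFITM3 on chromosome 11 and MRPL1 and NDUFC1 on chromosome 4. The part of position in their values was not tested. Whether the copy number of these chromosomes differs between the clone and the WT cells was not tested.

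**Figure D3:**
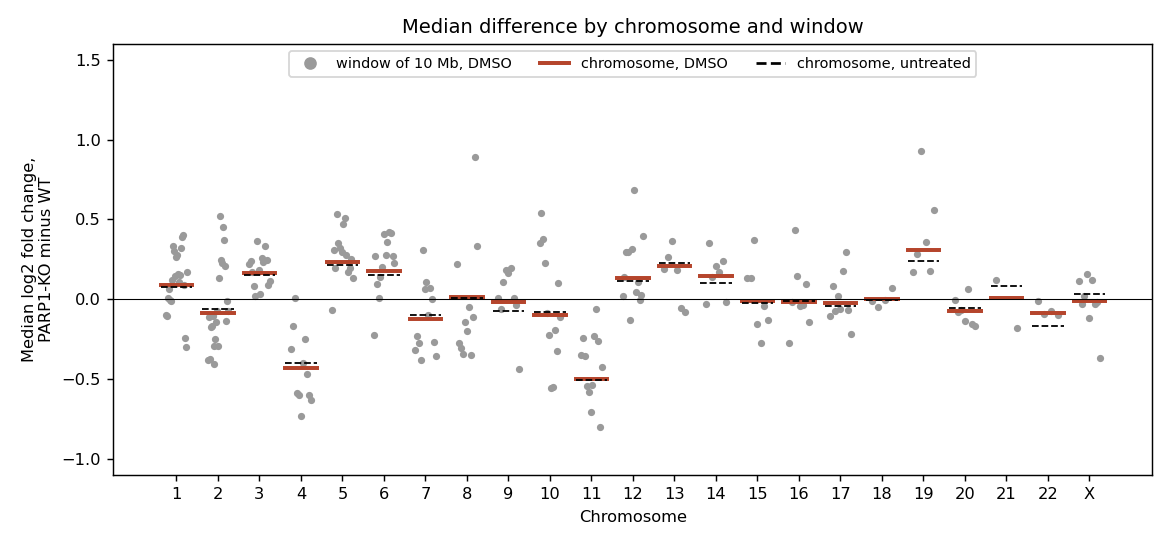
Median log2 fold change of PARP1-KO over WT (vertical) by chromosome (horizontal) for genes that averaged 50 or more counts, where grey points are windows of 10 Mb with DMSO, red lines whole chromosomes with DMSO and dashed lines whole chromosomes in untreated cells. With DMSO chromosome 11 lies at -0.50, chromosome 4 at -0.43 and chromosome 19 at 0.31, and the untreated line of chromosome 4 is at -0.40.

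The median of chromosome 19 was the highest of the chromosomes, 0.31, with 223 higher and 36 lower of 866 genes. Its window chr19:20000001-30000000 had a median of 0.93 over 34 genes, of which 23 were zinc finger (ZNF) genes, transcription factors of the large family that includes the KRAB repressors. Those named ZNF on this chromosome were then counted, a set chosen after the values were seen. Of 216, 113 rose and 2 fell, and 198 were positive, with a median of 0.84. Among them were ZNF66 (2.37), ZNF675 (1.54), ZNF730 (1.52), ZNF486 (1.32) and ZNF43 (1.31), while ZNF257 fell by 1.53. The 650 other genes of chromosome 19 had a median of 0.15, with 110 higher and 34 lower, and the 224 ZNF genes of other chromosomes had a median of 0.27, with 51 higher and 8 lower. The remaining 11083 genes had a median of -0.01. Without PARP1-KO library 3, 73 of the chromosome 19 ZNF genes rose and 1 fell (median 0.71), and without WT library 3, 93 rose and 1 fell (median 0.75). Zinc finger genes share similar sequences, so part of their reads may be divided among relatives.

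**Figure D4:**
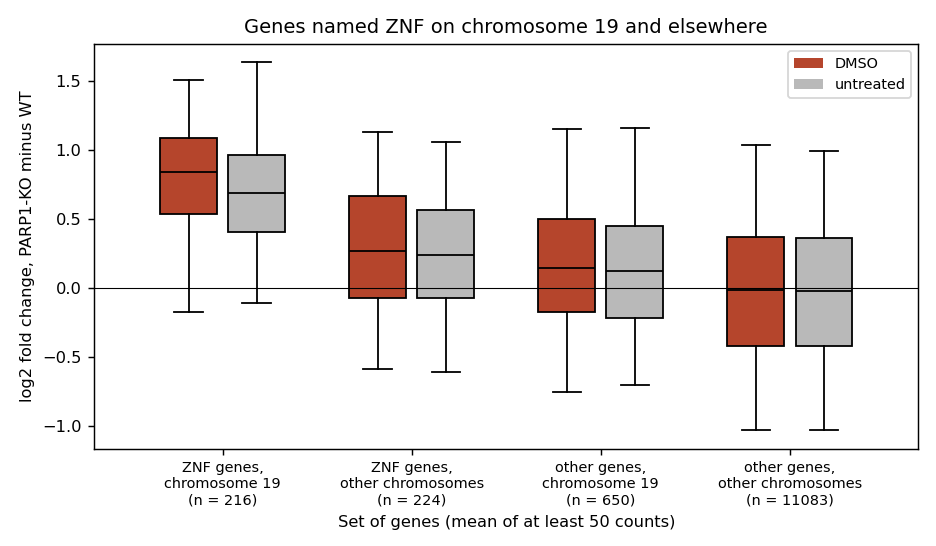
Log2 fold change of PARP1-KO over WT (vertical) in 4 sets of genes that averaged 50 or more counts, with DMSO (red) and untreated (grey), where boxes span the quartiles, the line is the median and whiskers reach the percentiles 5 and 95. With DMSO the medians are 0.84 for ZNF genes of chromosome 19, 0.27 for ZNF genes elsewhere, 0.15 for other genes of chromosome 19 and -0.01 for the rest.

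Transcript length and base composition moved with the genotype difference. The median log2 fold change increased with length, from -0.35 for transcripts below 1 kb (12 higher and 72 lower of 366) to 0.27 for those of at least 8 kb (280 higher and 73 lower of 1337). Genes with a GC content below 40% had a median of 0.23 (542 higher and 168 lower of 2304), and those of at least 60% had -0.21 (109 higher and 278 lower of 1548). Without PARP1-KO library 3 these medians were 0.16 and -0.13. Many ribosomal protein and respiratory chain transcripts are short, so these values stand beside their counts. With a correction for length and GC the ZNF genes of chromosome 19 had 96 higher and 2 lower DEGs (median 0.65), and the cytosolic ribosomal protein genes had 17 higher and 11 lower (median 0.08). With the same correction, 29 of 76 nuclear-encoded genes of oxidative phosphorylation were lower and 0 higher (median -0.37), as were 11 of the 13 mitochondrially encoded genes (median -0.83). The cause of the relation with length was not tested.

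The same genotypes were compared in untreated cells, which share no library with the DMSO groups although the clone and the parental line are the same. There, 3386 genes were DEGs (11.7%), 1727 higher (5.97%) and 1659 lower (5.74%). Of the 3592 DEGs with DMSO, 2551 were also DEGs in untreated cells with the same sign, and 3572 had the same sign. No gene passed the test of whether the genotype difference depended on DMSO (edgeR, 0 genes, smallest adjusted p = 0.7225), while 1754 genes had an unadjusted p-value below 0.05 and DESeq2 called 2. PARP1 differed by -4.54 in untreated cells and by -4.37 with DMSO. GADD45B differed by 2.24 and 2.75, NDRG1 by 1.90 and 2.38, LOX by 2.31 and 3.10, and HLA-B by -2.25 and -2.23. RBMS3, an RNA-binding protein gene on the YAP list, differed by 1.67 ± 0.36 with DMSO and by -0.13 untreated, but its interaction did not pass the test (adjusted p = 0.72). Of the 173 named DEGs, 141 were also DEGs with the same sign in untreated cells.

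**Figure D5:**
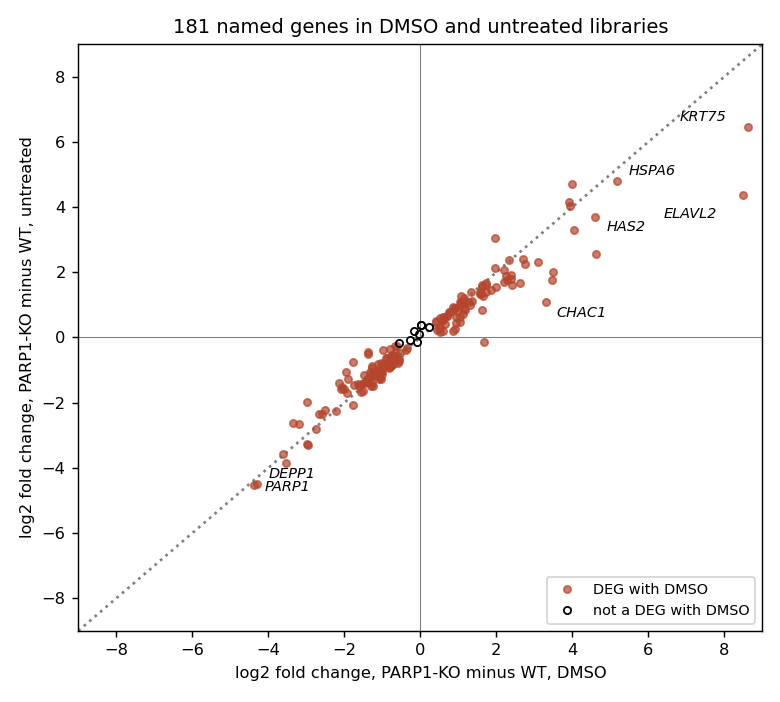
Log2 fold change of PARP1-KO over WT with DMSO (horizontal) and in untreated cells (vertical) for the 181 genes chosen for naming, filled where the gene was a DEG with DMSO, with a dotted line of equal values. Among the 173 filled points, 172 have the same sign in both comparisons.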

How the data were processed

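RNA-seq libraries were prepared by the authors from poly(A)-selected RNA with a directional kit. The deposited gene counts were made by the authors with STAR 2.7.8 on hg38 and Ensembl annotation, and FastQC 0.11.9 was used for read quality. The strand column used for counting was not given in the sources used here. Of the 181 genes chosen for naming, 26 overlap an annotated gene on the same strand and 74 a gene on the opposite strand, so their counts are uncertain to that extent.

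Genes with at least 10 summed counts over the 40 libraries were fitted together in edgeR 4.0.16 (R 4.3.3) with TMM normalization, 1 group for each of 10 conditions and the quasi-likelihood F-test, and p-values were adjusted by the Benjamini-Hochberg method over all 28922 genes. The standard error was derived from the F statistic. The steps were tested on simulated data. Gene positions were taken from GENCODE 44 and promoters from RefSeq (132 of the 181 genes had an entry). Alternatives were other normalizations, filters and sets of libraries, a replicate block, a term for library name prefixes, library complexity as a covariate, offsets for length and GC, each library left out and DESeq2 1.42.0.

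Genes were named by a rule, which took PARP1, then the DEGs averaging 50 or more counts without overlap of the groups whose differences were the 12 most positive and the 12 most negative, then the 3 highest and 3 lowest such DEGs of each of 42 gene lists, and 12 genes whatever their result. A few of these genes and 1 gene list are not reported here. The comparison, the gene lists and the promoters were chosen with earlier results of these data known, so list counts and medians are descriptions without a test. Counting limits the precision of genes with few counts.

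Samples with the same replicate number did not deviate together, with correlations of 0.0703, -0.159, -0.151 and -0.0532 over genes, so the numbers were not taken as pairs.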

Additional observations from a re-analysis of the deposited data

Results flagged for a closer look

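A library stood far from the other 3 of its group for 28 values of the genes reported, by Dixon's test. Chance flags about 1 in 20 groups. PARP1-KO library 3 gave 11 of these values and WT library 3 gave 6 and the others gave 0 to 4 each. The cause was not tested.

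PARP1-KO library 3 was high for the polymerase subunit POLD3 (160.6 CPM, the other 3 at 115.4 to 121.2), the proteasome subunit PSMD12 (336.5), SMAD5 of BMP signalling (316.8), the kinase PLK2 (158.4), the DNA sensor IFI16 (15.07) and ENSG00000234424 (19.28, the other 3 at 8 to 8.77). It was low for GDF15 (66.75), HK1 (103.5, the other 3 at 138 to 140.3), the Wnt antagonist DKK3 (2.839), KRT8 (544.6) and HSF1 (50.41).

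WT library 3 was low for PARP1 (737.4 CPM, the other 3 at 834 to 850.3), the sterol synthesis gene MSMO1 (26.61), the tight junction gene CLDN1 (5.993) and FSTL1 (212.9). It was high for TAF11L14 (19.66) and SPINT1 (82.94, the other 3 at 38.0 to 43.3). WT library 4 was high for PARP8 (31.63), NDRG1 (183.6) and the imprinted gene ZNF597 (17.07). It was also flagged for ELAVL2 (0.1566, with 0 in the other 3), but this value is 1 count, so that flag carries no information. WT library 1 was high for POLD3 (105.1), HERPUD1 (49.25) and IFI44L (2.985). PARP1-KO library 1 was low for PDIA4 (91.38) and high for PDK1 (85.33) and IER3 (218.5), and PARP1-KO library 2 was high for FOSB (62.91).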

How the results depend on the processing

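Over the alternatives and the leave-one-out fits, PARP1 kept its direction and its side of the threshold. With a variance estimated from only the 8 libraries, 1004 higher and 1057 lower DEGs were found, and with the 16 DMSO and untreated libraries 1192 were higher and 1207 lower. At an adjusted p of 0.05, 3106 were higher. With a change of at least 2-fold, 799 were higher and 584 lower. Leaving out 1 library in turn gave 1470 to 2019 higher and 1256 to 1725 lower DEGs, and PARP1 log2 fold changes from -4.46 to -4.27. The replicate block gave 1973 higher and 1648 lower DEGs, a PARP1 log2 fold change of -4.37 and 0 genes for the dependence on DMSO, for which DESeq2 called 2 genes. With library complexity as a covariate, 1556 were higher and 1526 lower, 2511 of the reported DEGs remained, and the NF-kappa B targets had a median of 0.39 with 8 higher and 1 lower.

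Genes near 0 changed sign without passing the test. Leaving out 1 library in turn moved the log2 fold change of TDP1 from -0.12 to 0.20, XRCC1 from -0.31 to 0.073, APEX1 from -0.18 to 0.035 and PARG from -0.16 to 0.20. With complexity as a covariate TDP1 took -0.083, XRCC1 0.056, APEX1 0.21 and PARG -0.055. With length and GC offsets TDP1 took -0.060, XRCC1 0.053, APEX1 0.053, PARG -0.087 and TOP1 -0.082. TDP1 took -0.0084 without a count filter, -0.0088 with only the 8 libraries and -0.000233 with the name prefix. The cause was not tested.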

Other observations

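Signalling and developmental gene lists held DEGs in both directions. DEGs made up 20% of the Wnt list, 24.5% of the TGF-beta and BMP list, 14.3% of the Notch list and 33.3% of the YAP and TEAD list. The share was 12.4% over all genes tested and 27.3% over those averaging 50 or more counts. The Wnt, TGF-beta and Notch shares lay between these, so they are not read as pathway results. Of 55 Wnt pathway genes, 2 rose and 9 fell. The secreted Wnt antagonist SFRP1 was found at 22.5, 17.6, 19.7 and 20.5 CPM in PARP1-KO and at 38.0, 46.3, 39.7 and 44.3 CPM in WT (log2 fold change -1.07 ± 0.21), the ligand gene WNT5B fell by 1.12 and WNT2B rose by 2.19. Of 53 genes of the TGF-beta and BMP pathway, 6 rose and 7 fell. INHBA, the activin A subunit, was found at 11.1, 13.8, 16.5 and 10.5 CPM against 0.711, 2.74, 3.96 and 2.66 CPM (log2 fold change 2.40 ± 0.39), its antagonist FSTL3 rose by 1.12, and the subunit gene INHBB and the receptor gene BMPR1A fell by 1.27 and 0.81. The groups did not overlap for any of these genes, which was a condition of their choice. Of 28 Notch genes 3 rose and 1 fell, with the ligand gene DLL1 rising by 1.06 and the target HES1 by 0.60, HES1 with an adjusted p of 0.029 without PARP1-KO library 3. Without WT library 3, WNT5B (adjusted p = 0.0105), WNT2B (adjusted p = 0.0159) and DLL1 (adjusted p = 0.0124) lost their calls. Of 24 YAP and TEAD targets 5 rose and 3 fell, and 4 rose and 4 fell without WT library 3.

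The HOX, kidney development, neuronal, cholesterol and imprinted lists held 13.5%, 18.8%, 18.2%, 23.1% and 19.4% DEGs, again between 12.4% and 27.3%. Of 37 HOX genes, 2 rose and 3 fell, among them HOXC4 (0.86), HOXB13 (-1.44) and HOXA7 (-1.38). Without WT library 3, 1 rose and 1 fell, and HOXC4 (adjusted p = 0.0104) was not a DEG, while HOXA7 lost its call in 6 of the 8 fits that left out 1 library, with adjusted p-values up to 0.067. Of 32 kidney development genes 2 rose and 4 fell (1 and 2 without PARP1-KO library 3, 3 and 2 without WT library 3), and GDNF, the ligand that induces the ureteric bud, was found at 34.4, 31.6, 41.4 and 34.7 CPM against 13.4, 13.8, 18.9 and 18.2 CPM (log2 fold change 1.15 ± 0.19). Of 44 neuronal genes 5 rose and 3 fell. The neuronal enolase ENO2 rose by 0.95, and the ubiquitin hydrolase UCHL1 and the neurofilament gene NEFM fell by 0.74 and 1.95. Without WT library 3, the difference of NEFM was -1.35 and missed the threshold (adjusted p = 0.0121). Of 26 cholesterol genes 1 rose and 5 fell (1 and 3 without WT library 3), of 36 imprinted genes 2 rose and 5 fell, of 30 cancer-testis genes 2 fell and none rose, and of 40 replication-dependent histone genes 1 rose and none fell. The imprinted potassium channel gene KCNQ1 was found at 2.256, 2.56, 2.25 and 3.61 CPM against 10.6, 11.6, 15.1 and 9.71 CPM (log2 fold change -2.13 ± 0.38). Poly(A) selection leaves out most histone mRNA.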
